A study of Rattus norvegicus with 16 samples.

Results

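The genes described here encode collagen chains, the subunits that assemble in threes into the collagen proteins of the extracellular matrix. They were chosen by name and by level. An entry had to have a symbol made of Col, a number, the letter a and a number, and a count of 10 or more in at least 4 of the 16 libraries. Of 32754 gene entries, 44 rows with 43 distinct symbols matched the name, and 32 genes also met the count minimum. By the collagen type in the symbol they were 9 fibrillar chains, 8 network chains, 5 beaded filament chains, 4 FACIT chains (fibril-associated collagens with interrupted triple helices), 3 transmembrane chains, 2 multiplexins and 1 anchoring fibril chain. Just inside the minimum were Col7a1 and Col23a1, each with 10 or more counts in 4 libraries, and Col19a1 with 5 such libraries. Just outside was Col22a1 with 3. The cartilage collagen Col2a1 was outside with at most 2 counts in any library, and Col10a1, Col25a1 and Col26a1 reached at most 1. The remaining rows below the minimum were Col6a4, Col6a5, Col9a1, Col9a2, Col9a3, Col20a1 and a second Col23a1 entry, with at most 14 counts. Col1a2, the partner of Col1a1 in type I collagen, was not analysed here.

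Each library was made from 10 mg of right ventricle, and the donors were female rats of the Sprague Dawley strain at 20 to 21 weeks of age. They were wild type (WT) or ERalpha -/- (called KO here), a genotype that removes the function of estrogen receptor alpha, the product of Esr1. Banded rats (PAB) had carried a constricting band on the pulmonary artery for 10 weeks, which loads the right ventricle with pressure, and the others (SHAM) had a sham operation. Each of the 4 combinations of genotype and surgery has 4 libraries, named below by group and replicate number. All groups share strain, sex, age and tissue. Whether replicates are different rats is not stated in the labels, and p-values then reflect only library-to-library spread, which may in part be technical. The comparisons ask how collagen transcripts differ after banding and whether that difference depends on estrogen receptor alpha.

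Fibrillar collagens I, III and V build the cable-like fibrils that give the heart wall its tensile strength, and are made mainly by fibroblasts. Network collagens form sheets: type IV is the scaffold of the basement membrane around myocytes and capillaries, and type VIII lies beneath endothelium and in vessel walls. Type VI makes beaded filaments between cells and fibrils, FACIT collagens sit on fibril surfaces, and multiplexins belong to basement membrane zones. Pressure overload of the heart is known for interstitial fibrosis, in which collagen is deposited between myocytes.

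Promoter sequence was available for 27 of the 32 genes as 300-base windows from 250 bases before to 50 bases after the annotated start, from RefSeq on the rat assembly GRCr8. The counts were made on Rnor_6.0, so these coordinates do not carry over to the counts. Windows of 4 genes that passed for banding in at least 1 fit below are printed 5′ to 3′. Col12a1, which also passed in some fits, was not among the 27. Capitals mark the GC box GGGCGG, the CCAAT box, the TATA box TATAAA and the AP-1 motif TGANTCA on either strand. Col4a1 lies on the plus strand and Col4a2 on the minus strand, and their windows overlap around both starts.
Col4a1 (chr16:84885347-84885646, plus strand): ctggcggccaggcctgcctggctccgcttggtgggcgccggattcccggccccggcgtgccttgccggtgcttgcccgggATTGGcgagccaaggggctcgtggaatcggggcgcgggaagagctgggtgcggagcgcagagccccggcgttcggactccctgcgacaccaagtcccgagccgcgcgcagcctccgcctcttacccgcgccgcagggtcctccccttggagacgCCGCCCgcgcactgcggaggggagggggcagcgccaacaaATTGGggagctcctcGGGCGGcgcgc
Col4a2 (chr16:84885471-84885770, minus strand): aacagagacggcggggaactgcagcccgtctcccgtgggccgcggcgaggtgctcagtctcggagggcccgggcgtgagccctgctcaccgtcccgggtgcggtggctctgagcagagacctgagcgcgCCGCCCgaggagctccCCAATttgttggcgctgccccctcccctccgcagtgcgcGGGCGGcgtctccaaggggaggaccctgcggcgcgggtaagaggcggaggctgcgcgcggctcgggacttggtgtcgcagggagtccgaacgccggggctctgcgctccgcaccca
Col8a1 (chr11:56246532-56246831, plus strand): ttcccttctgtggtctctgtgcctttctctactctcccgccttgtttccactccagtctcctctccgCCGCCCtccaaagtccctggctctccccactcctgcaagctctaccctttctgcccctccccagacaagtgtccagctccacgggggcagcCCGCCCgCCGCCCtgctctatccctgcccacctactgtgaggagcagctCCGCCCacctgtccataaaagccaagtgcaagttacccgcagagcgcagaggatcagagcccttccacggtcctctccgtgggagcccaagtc
Col6a6 (chr8:115352112-115352411, minus strand): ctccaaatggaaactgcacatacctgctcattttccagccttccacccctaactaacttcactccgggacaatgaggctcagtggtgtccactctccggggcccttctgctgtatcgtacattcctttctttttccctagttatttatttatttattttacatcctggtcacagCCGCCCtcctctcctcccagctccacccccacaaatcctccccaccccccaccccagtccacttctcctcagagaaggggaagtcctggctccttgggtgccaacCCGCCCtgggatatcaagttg

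The starts of Col4a1 and Col4a2 were 77 bases apart, and the windows shared 176 bases, read on opposite strands. The shared stretch held 2 GC boxes and 1 CCAAT box, so these motifs belong to both genes at once. The head-to-head pair Col4a3 and Col4a4 shared 88 bases with starts 413 bases apart, and none of the motifs lay in them. Col4a5 and Col4a6, also head to head, had starts 1415 bases apart and windows that shared 0 bases. The Col8a1 window held 4 GC boxes and the Col6a6 window 2, and neither held a match to the other motifs. A GC box was present in 66.7% of the 27 collagen windows and in 33.1% of the 33469 windows in the table. The shares were 22.2% and 37.5% for CCAAT, 7.41% and 14.2% for TATAAA, and 3.7% and 7.33% for the AP-1 motif. These matches describe letters only, and binding of any factor was not measured.

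Total counts per library ran from 22168110 to 34718633. Esr1 had 70 to 139 counts in the WT libraries and 7 to 21 in the KO libraries, with no overlap. Summed markers of cardiomyocytes, such as Myh6 and Tnnt2, reached 29316 to 57548 CPM (counts scaled to a common library size after TMM normalization). Of 5 atrial genes, Bmp10 was at 0 in every SHAM library and at most 0.0384 CPM in PAB, and the 5 summed to 3.23 to 23.6 CPM in SHAM and 45.6 to 1037 CPM in PAB, most of it Nppa, the natriuretic peptide gene. The libraries WT SHAM 2, WT SHAM 3 and KO SHAM 4 stood apart. Adipoq, a fat-cell gene, was at 56.5, 31.0 and 13.2 CPM of the plain total in them and at most 0.0451 in the other 5 SHAM libraries. Each result is therefore given with all 16 libraries and without these 3. One banded library, KO PAB 3, also exceeded 5 with 5.51 and stays in unless stated.

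The same 3 SHAM libraries were high in markers of several cell types and low in those of cardiomyocytes, and most collagens were high in them. Cardiomyocyte markers (8 genes) summed to 29316 to 41430 CPM in them against 47622 to 57548 CPM in the other 5. Summed over 8 adipocyte genes they stood at 35.8 to 200 CPM against 1.32 to 2.46 in the other 5, where Plin1, Retn and Ucp1 were at 0. Mesothelial markers (8 genes), which mark the outer lining of the heart, summed to 58.6 to 118 against 8.02 to 30.2 CPM. Smooth muscle markers (6 genes) summed to 877 to 2954 against 77.8 to 257 CPM. Fibroblast markers (6 genes) summed to 1311 to 2118 against 641 to 942 CPM, 6 activated fibroblast genes to 159 to 341 against 45.6 to 70.9 CPM and 5 macrophage genes to 92.2 to 126 against 34.4 to 54.3 CPM. Endothelial genes overlapped, at 219 to 263 against 234 to 319 CPM. Of the 31 collagens tested, 22 were above all 5 other SHAM libraries in each of the 3 libraries, 0 were below and 9 overlapped, where 16.4% of all 13458 genes tested were above and 15.3% below. The 22 include Col23a1, which had 68, 20 and 67 counts in WT SHAM 2, WT SHAM 3 and KO SHAM 4. It failed the filter on low counts without these libraries, so it is not counted as support. The 9 that overlapped were Col4a1, Col4a2, Col5a3, Col6a3, Col11a2, Col15a1, Col19a1, Col24a1 and Col27a1. The part of these markers in the collagen results was not tested. In bulk tissue, fewer cells of a type and less RNA per cell cannot be told apart.

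**Figure D1:**
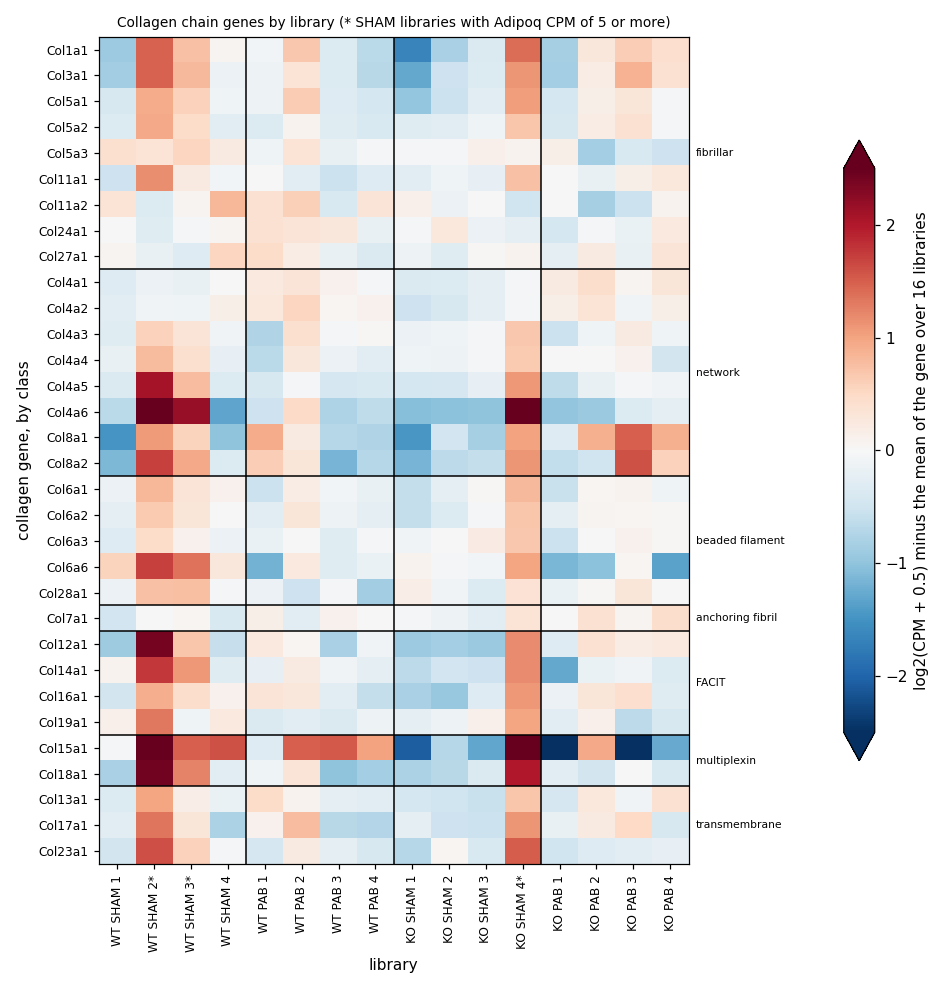
Each row is 1 of the 32 collagen genes, ordered by class, and each column 1 of the 16 libraries. Colour is log2(CPM + 0.5) minus the gene's mean over the 16 libraries, with the darkest colours also used for values beyond the scale. The 3 starred SHAM libraries exceed all other SHAM libraries in 22 of the 31 rows tested and in that of Col7a1, which was not tested with all libraries, and the rows of Col4a1 and Col4a2 vary least among the network chains.

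Between 0.0909% and 0.424% of a library's counts fell on collagen genes. Their summed level was 2090 ± 999 CPM in WT SHAM, 1570.5 ± 322 CPM in WT PAB, 1598 ± 852 CPM in KO SHAM and 1743 ± 363 CPM in KO PAB (mean ± SD, n = 4 each). The 3 highest libraries of all 16 were WT SHAM 2 at 3423 CPM, KO SHAM 4 at 2855 CPM and WT SHAM 3 at 2257 CPM. Without them the mean was 1341 CPM in WT SHAM (n = 2) and 1178 ± 189 CPM in KO SHAM (n = 3), both below the banded means. The fibrillar sum showed the same reordering: it averaged 977 CPM in WT SHAM and 617 CPM in WT PAB with all libraries, and 512 CPM in WT SHAM without WT SHAM 2 and 3. For KO the fibrillar sum averaged 684 CPM in SHAM, 780 CPM in PAB and 435 CPM in the 3 remaining SHAM libraries. Network chains were steadier, at 635 ± 179, 632 ± 82.8, 529 ± 128 and 659 ± 50.5 CPM for WT sham, WT banded, KO sham and KO banded hearts in turn. Without the 3 libraries the network sum averaged 515 CPM in WT SHAM and 466 CPM in KO SHAM. These sums are descriptions and carry no test. Levels are not compared between genes, since no transcript lengths were used.

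**Figure D2:**
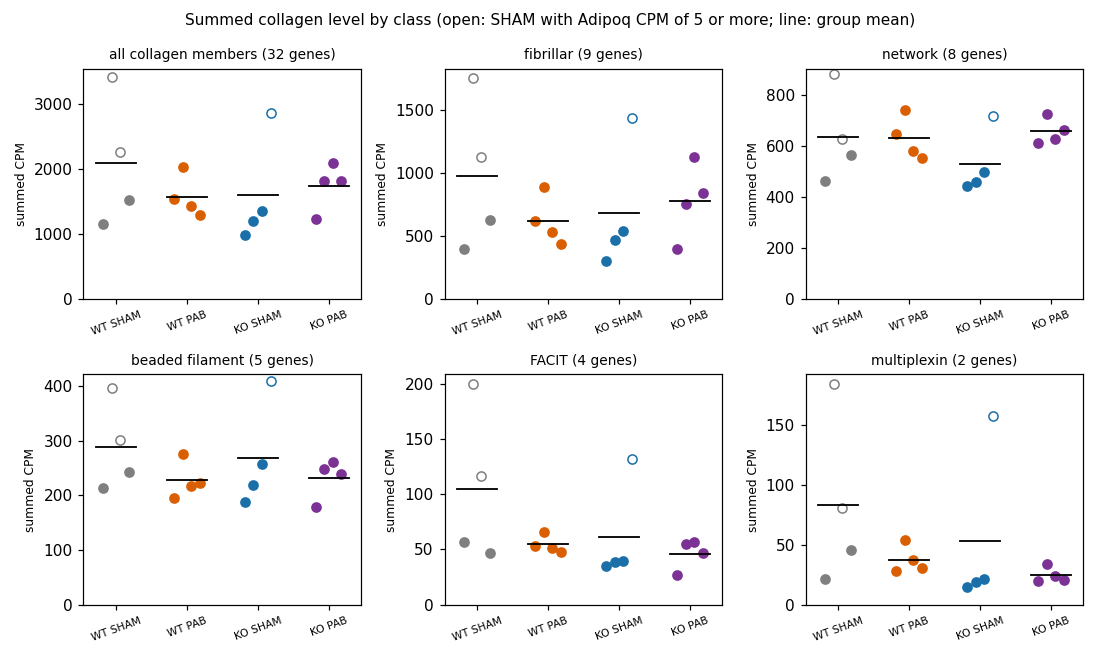
The summed CPM of all collagens and of 5 classes is plotted for each library by group, with open circles for the 3 SHAM libraries high in Adipoq and a line at the mean of 4. In the panel of all collagens the open circles lie at 2257 to 3423 CPM and the other SHAM libraries at 979 to 1526 CPM.

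Single genes differed widely in how much they varied. Over the 16 libraries Col4a1 ran from 234 to 405 CPM, a ratio of 1.73 between highest and lowest, and Col24a1, Col27a1 and Col4a2 spanned ratios of 2.02, 2.03 and 2.06. Col1a1 spanned a ratio of 8.79, Col8a1 8.52, Col12a1 12.2 and Col18a1 11.0. The widest measurable span was that of Col4a6, from 0.411 to 39.6 CPM.

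Averaged over both genotypes, 2 of 31 collagens tested rose after banding and 1 fell with all 16 libraries. The basement membrane chains Col4a1 and Col4a2 rose, and Col6a6, a minor type VI chain, fell. Among all 13458 genes tested 3.24% rose and 1.85% fell (edgeR quasi-likelihood test, Benjamini-Hochberg adjusted p below 0.05). The median log2 fold change of the 31 collagens was −0.27, against −0.02 for all genes, and 5 of 31 were above 0 (45.3% of all genes). Those below 0 include Col23a1, which passed the filter on low counts only through the 3 SHAM libraries high in Adipoq. They also include Col19a1, which passed it only through SHAM libraries, where it was high. In PAB, KO PAB 2 alone reached 10 counts of Col19a1, with 11, so its differences are not counted as support. Without the 3 SHAM libraries 5 of 31 collagens rose and 0 fell, where 3.83% and 3.17% of 13583 genes did. At an unadjusted p below 0.05, 2 collagens were higher and 9, Col19a1 and Col23a1 included, lower with all libraries (11% and 11.8% of all genes). Without the 3, 9 were higher, Col7a1 and Col13a1 included, and 3 lower, Col19a1 included (13.2% and 11.6%). The calls were Col4a1, Col4a2, Col8a1, Col12a1 and Col7a1. Col7a1 failed the filter on low counts with all libraries, and here every count of 10 or more was in a banded library, so it passed the filter only through the group where it was high and its call is not counted as support. The same holds here for Col11a1 and Col13a1, which had 10 or more counts in banded libraries only and are not counted as support. The median moved to 0.29, with 24 of 31 above 0 (52.2% of all genes), Col7a1, Col11a1 and Col13a1 included. The median thus changed sign with 3 of 8 SHAM libraries, whereas Col4a1 and Col4a2 passed either way. Among 6 activated fibroblast genes 0 passed with all libraries and 4 rose without the 3, and their sum was 44.3 to 157 CPM in PAB. With all libraries 3 of 8 mesothelial and 3 of 6 smooth muscle genes fell and 0 of either without the 3. Their sums in PAB were 12.8 to 20.4 and 61.9 to 197 CPM. Schwann cell markers (5 genes) summed to 17.9 to 23.7 CPM in WT SHAM and 12.7 to 17.6 CPM in WT PAB. In KO they summed to 18.2 to 28.8 CPM in SHAM and 8.30 to 14.3 CPM in PAB. The part of these cells in the collagen differences was not tested. Leaving out KO PAB 3 as well gave Col4a1, Col4a2 and Col12a1 as rises and Col6a6 as a fall. In that fit 529 genes passed in both directions together, a total not split by direction here. DESeq2, on all libraries, called 6 collagens, adding falls of Col4a6, Col5a3 and Col19a1, the last not counted as support. It called more genes in this comparison, 1337 against 685 in the main fit, both directions together.

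**Figure D3:**
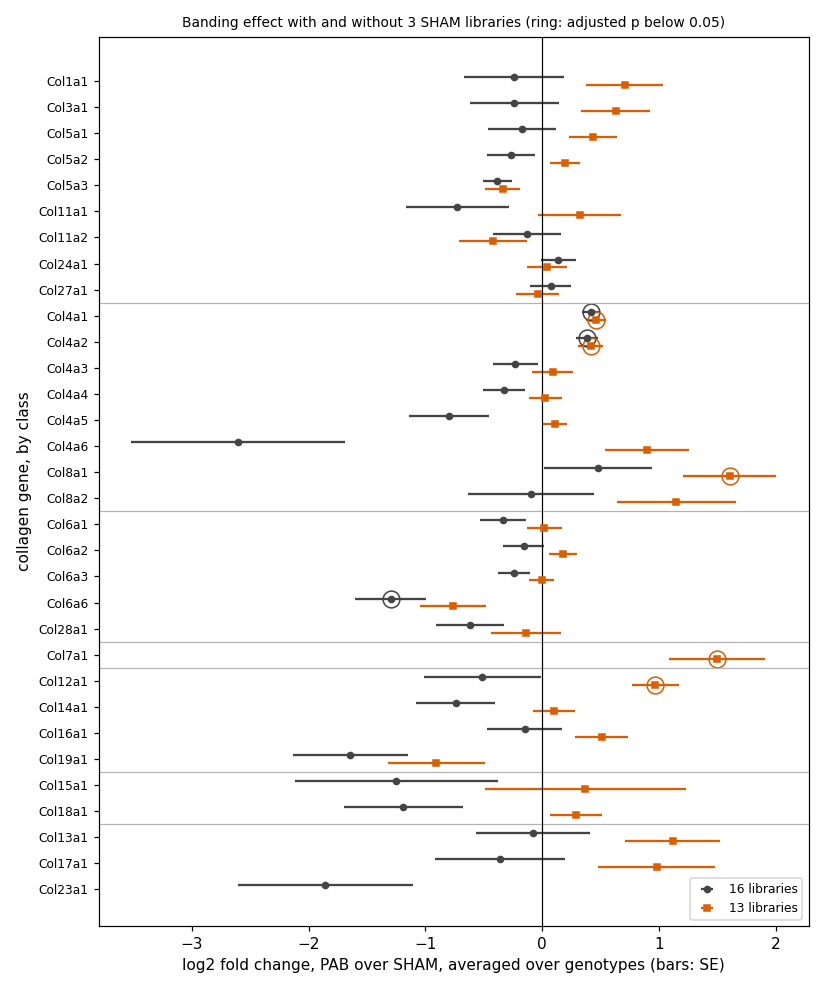
Points give the log2 fold change after banding averaged over genotypes, with bars of 1 SE, for all 16 libraries (grey circles) and without the 3 SHAM libraries (orange squares), and a ring marks an adjusted p below 0.05. Orange points lie to the right of the grey ones for most genes, and the 2 values of Col4a1 and of Col4a2 nearly coincide. A gene with 1 point was tested in 1 of the fits only, and Col7a1 entered that fit only through counts in banded libraries. Col11a1 and Col13a1 likewise entered the fit of the orange squares only through banded libraries.

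Among the network chains, Col4a1, the alpha1 chain of the ubiquitous type IV collagen, stood at 238, 272, 265 and 296 CPM in WT SHAM and 234, 236, 253 and 291 CPM in KO SHAM, each list running from replicate 1 to 4. After banding it stood at 357, 377, 324 and 290.3 CPM in WT PAB and 349, 405, 313 and 367 CPM in KO PAB. In KO every banded library was above every sham library, while in WT the lowest banded library was just below the highest sham library. Averaged over genotypes it rose by 0.42 (SE 0.08, adjusted p = 0.0100), and by 0.46 (SE 0.09, adjusted p = 0.0180) without the 3 libraries. It passed in all 16 fits that left out 1 library, with adjusted p of 0.00737 to 0.0262. Col4a2, its partner in the same trimer, stood at 117, 132, 129 and 155 CPM in WT SHAM and 98.3, 106, 120.0 and 136 CPM in KO SHAM. The banded libraries stood at 169, 202, 145 and 151 CPM in WT PAB and 156, 178, 133 and 155 CPM in KO PAB. The groups overlapped in both genotypes, in KO through KO SHAM 4 and KO PAB 3 alone, and the averaged rise was 0.38 (SE 0.09, adjusted p = 0.0322), or 0.41 (SE 0.11, adjusted p = 0.0377) without the 3 libraries. That call was lost when WT SHAM 1 or 3, WT PAB 1 or 2, KO SHAM 1 or 2, or KO PAB 1, 2 or 4 was left out, with values of 0.33 to 0.43 over all such fits and adjusted p up to 0.0726.

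Col8a1, a short-chain collagen of vessel walls, stood at 4.75, 30.0, 20.8 and 6.70 CPM in WT SHAM and 4.77, 9.98, 7.65 and 28.9 CPM in KO SHAM. With banding it stood at 27.1, 16.5, 8.34 and 8.10 CPM in WT PAB and 11.2, 26.4, 40.4 and 26.3 CPM in KO PAB. The 3 sham libraries high in Adipoq were at 20.8 to 30.0 CPM and the other 5 at 4.75 to 9.98 CPM, and in each genotype every banded library was above the sham libraries of that genotype among these 5. The averaged log2 fold change was 0.48 (SE 0.46, adjusted p = 0.576) with all libraries, and it rose by 1.60 (SE 0.40, adjusted p = 0.0390) without the 3. That call was lost when KO PAB 3 was also left out, at 1.45 with adjusted p = 0.0639. Its partner Col8a2 stood at 1.38, 12.9, 7.45 and 2.75 CPM in WT SHAM and 1.33, 2.11, 2.21 and 8.26 CPM in KO SHAM, and after banding at 5.80, 4.56, 1.34 and 2.01 CPM in WT PAB and 2.18, 2.40, 11.9 and 5.60 CPM in KO PAB. It did not pass in either fit, with −0.10 (SE 0.54, adjusted p = 0.937) and 1.14 (SE 0.51, adjusted p = 0.190) without the 3 libraries.

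The other type IV chains overlapped between groups. Col4a5, which forms networks with Col4a6 and with Col4a3 and Col4a4, stood at 55.4, 304, 123 and 56.2 CPM in WT SHAM and 52.8, 53.1, 61.7 and 153 CPM in KO SHAM. Its banded values were 54.4, 70.3, 53.6 and 54.9 CPM in WT PAB and 45.9, 62.5, 70.1 and 67.1 CPM in KO PAB. Outside the 3 sham libraries it lay in a narrow band of 45.9 to 70.3 CPM in every group, and its averaged log2 fold change went from −0.80 (SE 0.34, adjusted p = 0.184) to 0.10 (SE 0.10, adjusted p = 0.577). Col4a6 stood at 0.922, 39.6, 9.81 and 0.411 CPM in WT SHAM and 0.589, 0.614, 0.637 and 14.3 CPM in KO SHAM. Banded libraries stood at 1.08, 2.68, 0.830 and 0.964 CPM in WT PAB and 0.640, 0.686, 1.28 and 1.42 CPM in KO PAB. Above 9 CPM it was found in the same 3 libraries only, and the averaged value changed sign, from −2.60 (SE 0.91, adjusted p = 0.110) to 0.90 (SE 0.36, adjusted p = 0.141). Col4a3 and Col4a4 ranged over 8.34 to 23.4 and 25.1 to 70.0 CPM, with averaged differences of −0.23 and −0.33 that became 0.09 and 0.03 without the 3 libraries.

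None of the 9 fibrillar chains passed in the averaged comparison, with or without the 3 libraries, and at an unadjusted p below 0.05 0 were higher and 1, Col5a3, was lower in each fit. Col1a1, the main chain of type I collagen, stood at 55.5, 288, 173 and 109 CPM in WT SHAM and 32.8, 59.2, 80.8 and 273 CPM in KO SHAM. After banding it stood at 99.0, 166, 82.1 and 65.2 CPM in WT PAB and 58.3, 127, 159.7 and 139 CPM in KO PAB. The highest sham library of each genotype exceeded every banded library of that genotype, and each is one of the 3. The averaged log2 fold change was −0.24 (SE 0.43, adjusted p = 0.781), and 0.70 (SE 0.33, adjusted p = 0.215) without the 3 libraries. Col3a1, which forms type III homotrimers in the same fibrils, stood at 255, 1292, 816 and 419 CPM in WT SHAM and 191, 326, 366 and 996 CPM in KO SHAM. In banded libraries it stood at 427, 592, 369 and 288 CPM in WT PAB and 256, 527, 850.5 and 609 CPM in KO PAB. Its highest sham library also exceeded every banded library in each genotype, and its averaged value was −0.24 (SE 0.38, adjusted p = 0.756), or 0.63 (SE 0.30, adjusted p = 0.217) without the 3.

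Type V chains nucleate the fibrils of types I and III. Col5a1 stood at 26.2, 66.7, 51.9 and 32.3 CPM in WT SHAM and 17.5, 23.98, 28.9 and 72.0 CPM in KO SHAM, and after banding at 32.1, 54.5, 27.9 and 25.5 CPM in WT PAB and 25.5, 38.7, 43.0 and 34.3 CPM in KO PAB. Col5a2 stood at 32.2, 79.0, 56.3 and 34.0 CPM in WT SHAM and 32.8, 33.8, 37.8 and 66.6 CPM in KO SHAM, with 32.1, 43.4, 33.2 and 31.3 CPM in WT PAB and 30.8, 46.7, 53.7 and 39.7 CPM in KO PAB after banding. Both were highest in the 3 sham libraries among SHAM, and their averaged differences changed sign, from −0.18 to 0.43 and from −0.27 to 0.19. Col5a3, the less common type V chain, stood at 23.4, 22.2, 25.5 and 20.6 CPM in WT SHAM and 16.8, 16.9, 19.2 and 18.6 CPM in KO SHAM. Its banded values were 16.3, 22.3, 15.4 and 17.1 CPM in WT PAB and 19.4, 9.45, 13.3 and 12.1 CPM in KO PAB. It did not follow the 3 libraries, and its averaged difference stayed negative, at −0.38 (SE 0.12, adjusted p = 0.0775) and −0.34 (SE 0.15, adjusted p = 0.184) without them. It passed as a fall when KO PAB 1 was left out (−0.50, adjusted p = 0.0111) and under DESeq2.

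The remaining fibrillar chains were low. Col11a1, a nucleator of cartilage-type fibrils, stood at 0.138, 1.55, 0.573 and 0.370 CPM in WT SHAM and 0.248, 0.345, 0.297 and 1.02 CPM in KO SHAM, and after banding at 0.423, 0.258, 0.128 and 0.231 CPM in WT PAB and 0.414, 0.305, 0.513 and 0.603 CPM in KO PAB. Col11a2 stood at 1.47, 0.732, 1.15 and 2.30 CPM in WT SHAM and 1.21, 0.921, 1.06 and 0.604 CPM in KO SHAM, with 1.54, 1.87, 0.703 and 1.47 CPM in WT PAB and 1.05, 0.381, 0.586 and 1.17 CPM in KO PAB after banding. Col11a1 was highest in WT SHAM 2 and KO SHAM 4, whereas Col11a2 overlapped throughout, with averaged values of −0.13 and −0.42 without the 3 libraries. Col24a1 and Col27a1 stayed within 1.51 to 3.04 and 2.39 to 4.85 CPM in all 16 libraries, with averaged differences of 0.14 and 0.07.

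Type VI chains form beaded filaments as trimers of Col6a1, Col6a2 and Col6a3. Col6a1 stood at 61.7, 121, 85.4 and 73.3 CPM in WT SHAM and 44.6, 57.8, 68.9 and 119.8 CPM in KO SHAM, and after banding at 47.0, 77.8, 64.9 and 59.7 CPM in WT PAB and 46.0, 70.3, 72.1 and 62.7 CPM in KO PAB. Col6a2 stood at 72.3, 132, 104 and 83.0 CPM in WT SHAM and 55.5, 66.5, 81.2 and 137 CPM in KO SHAM, with 68.7, 104, 77.0 and 72.0 CPM in WT PAB and 70.6, 87.8, 87.6 and 85.5 CPM in KO PAB after banding. Col6a3 stood at 68.6, 117, 91.9 and 77.5 CPM in WT SHAM and 80.1, 86.5, 99.4 and 138 CPM in KO SHAM, and at 76.0, 85.1, 69.4 and 84.3 CPM in WT PAB and 58.5, 86.5, 92.4 and 87.2 CPM in KO PAB in banded libraries. All 3 chains overlapped between sham and banded libraries of each genotype, and their averaged differences were −0.33, −0.16 and −0.25. Without the 3 libraries these were 0.02, 0.18 and −0.01, with SE of 0.15, 0.12 and 0.11, and none passed in either fit.

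Col6a6, a chain that can take the place of Col6a3, went the other way from the type IV pair. It stood at 10.0, 23.2, 17.9 and 8.26 CPM in WT SHAM and 7.13, 6.49, 6.33 and 13.9 CPM in KO SHAM. After banding it stood at 2.69, 8.01, 5.37 and 5.90 CPM in WT PAB and 2.75, 3.05, 7.00 and 2.34 CPM in KO PAB. Every WT banded library was below every WT sham library, also without WT SHAM 2 and 3, and in KO only KO PAB 3 reached into the sham range. It fell by 1.299 on the log2 scale averaged over genotypes (SE 0.31, adjusted p = 0.0263). Without the 3 libraries it did not pass, at −0.77 (SE 0.28, adjusted p = 0.120), and without KO PAB 3 as well it fell by 1.01 (SE 0.21, adjusted p = 0.0328). The call with all 16 libraries was lost when WT SHAM 2 or 3, WT PAB 1, or KO PAB 1, 2 or 4 was left out, with values of −1.54 to −1.12 over all such fits and adjusted p up to 0.0614. Col28a1, a type VI-like chain, stood at 0.193 to 1.65 CPM and did not pass, at −0.62 and −0.14 without the 3 libraries.

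Among the FACIT chains, Col12a1, which decorates type I fibrils in tissue under tension, stood at 2.07, 24.4, 7.16 and 2.67 CPM in WT SHAM and 2.02, 2.15, 2.00 and 10.2 CPM in KO SHAM. Banded libraries stood at 5.11, 4.39, 2.20 and 3.97 CPM in WT PAB and 3.31, 5.68, 4.91 and 5.11 CPM in KO PAB. The 5 other sham libraries lay between 2.00 and 2.67 CPM, and all 4 KO banded libraries and 3 of 4 WT banded libraries were above them. With all libraries the averaged value was −0.51 (SE 0.50, adjusted p = 0.580), and without the 3 it rose by 0.97 (SE 0.20, adjusted p = 0.0229). It also passed when KO PAB 3 was left out, at 0.96 with adjusted p = 0.0381. Col14a1, another FACIT chain of fibril surfaces, stood at 50.7, 165, 103 and 38.8 CPM in WT SHAM and 30.0, 34.3, 33.1 and 109.6 CPM in KO SHAM, and after banding at 41.7, 55.8, 45.1 and 40.9 CPM in WT PAB and 19.3, 42.4, 44.9 and 37.7 CPM in KO PAB. Outside the 3 libraries it overlapped between sham and banded hearts, and its averaged value went from −0.74 to 0.10, neither past the test. Col16a1 and Col19a1 did not pass, with −0.15 and −1.64 for all libraries and 0.51 and −0.91 without the 3. Col19a1 passed the filter on low counts only through SHAM libraries.

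**Figure D4:**
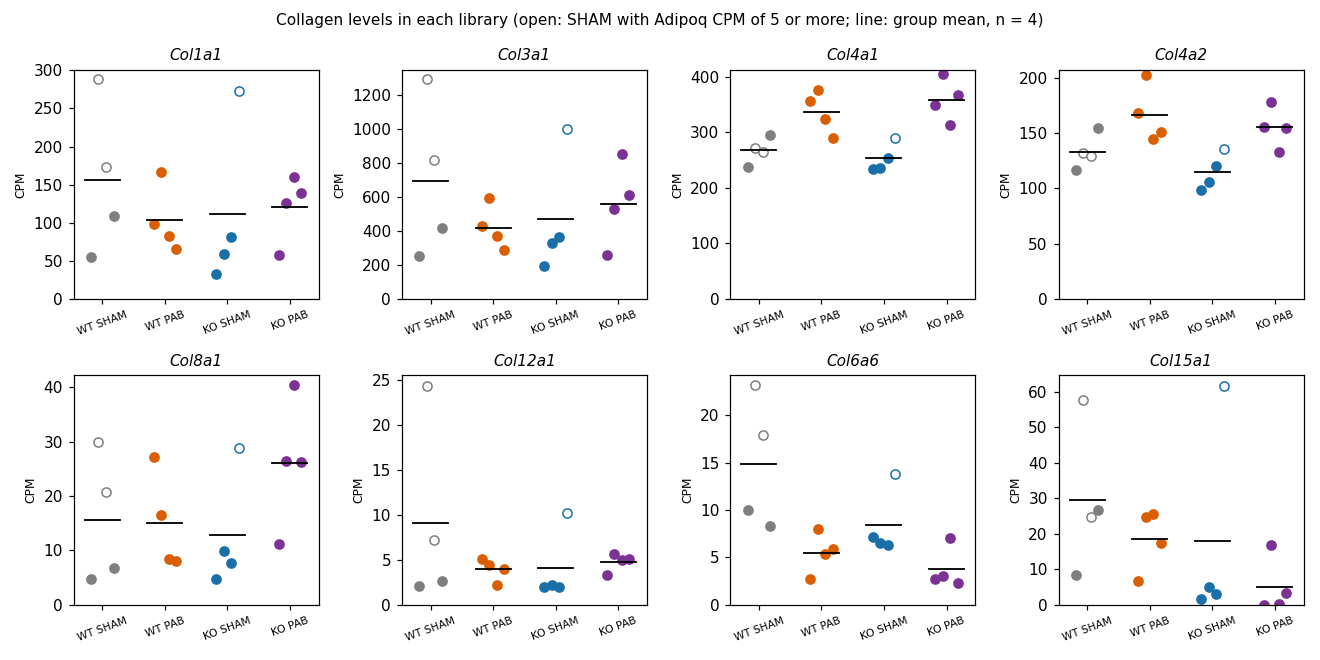
Levels of 8 collagens in CPM are plotted for each library by group, with open circles for the 3 SHAM libraries high in Adipoq and a line at the mean of 4. For Col1a1, Col3a1, Col12a1 and Col6a6 the open circles are the highest SHAM points, while for Col4a1 and Col4a2 this holds for KO SHAM 4 within KO but not for the 2 open circles of WT SHAM.

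The multiplexins Col15a1 and Col18a1 lie at basement membranes, and Col18a1 carries the sequence of the fragment endostatin at its end. Col15a1 stood at 8.34, 57.7, 24.8 and 26.6 CPM in WT SHAM and 1.64, 4.95, 3.14 and 61.5 CPM in KO SHAM. After banding it stood at 6.69, 24.7, 25.5 and 17.5 CPM in WT PAB and 0, 16.7, 0.183 and 3.26 CPM in KO PAB. In KO PAB 1 the count was 0, which allows up to 3 counts or 0.113 CPM by counting error alone, and in KO PAB 3 it was 5, against 53 to 2241 in the other 14 libraries. Outside KO SHAM 4 the KO libraries reached at most 16.7 CPM, and the WT libraries ran from 6.69 to 57.7 CPM. No comparison of Col15a1 passed the test. Col18a1 stood at 13.1, 126, 56.0 and 19.3 CPM in WT SHAM and 13.3, 14.2, 18.2 and 95.5 CPM in KO SHAM, with 21.6, 29.4, 11.5 and 12.7 CPM in WT PAB and 19.5, 16.9, 23.6 and 17.7 CPM in KO PAB after banding. It exceeded 50 CPM in the 3 sham libraries and 30 CPM in no other, and its averaged value was −1.19 with all libraries and 0.29 without the 3.

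The transmembrane chains Col13a1, Col17a1 and Col23a1 span the cell membrane and bind the matrix outside it. They stayed at or under 2.58 CPM in all libraries, and none passed in the averaged comparison. Col7a1, which forms the anchoring fibrils beneath epithelia, had 1 to 17 counts per library. Its counts were 1, 9, 8 and 2 in WT SHAM, 9, 4, 10 and 7 in WT PAB, 8, 5, 3 and 17 in KO SHAM and 7, 13, 8 and 15 in KO PAB. The groups overlapped in both genotypes, and KO SHAM 4 had the most counts of any library. Since Col7a1 entered the fit without the 3 libraries only through banded libraries, its difference there is not given as a test.

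Banding within WT gave no collagen past the test, with or without the 3 libraries, where 0.00743% of all genes passed with all libraries and 0% without. At an unadjusted p below 0.05, 2 collagens were higher and 7, Col19a1 included, lower with all libraries (5.45% and 6.26% of all genes). Without the 3, 4 were higher, Col7a1 included, and 0 lower (4.18% and 3.28%). The median collagen difference was −0.53 with all libraries and 0.15 without WT SHAM 2 and 3, against −0.02 and 0.01 for all genes. The number above 0 was 3 of 31 and then 24 of 31, where 47% and 52.5% of all genes were above 0. The 24 include Col7a1, Col11a1 and Col13a1, which are not counted as support. DESeq2 also called 0 collagens on all libraries, where 108 genes passed. Col4a1 differed by 0.33 (SE 0.11, adjusted p = 0.363) and Col4a2 by 0.32 (SE 0.13, adjusted p = 0.385). Among chains with a mean of at least 1 CPM the largest differences with all libraries were those of Col4a6 at −3.19, Col18a1 at −1.52 and Col6a6 at −1.44, none past the test.

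Banding within KO also gave no collagen past the test with all libraries, where 0.632% of genes passed, and 2 of 31 rose without the 3 libraries, where 1.42% of genes rose. Those were Col4a1 at 0.58 (SE 0.11, adjusted p = 0.0349) and Col12a1 at 1.21 (SE 0.26, adjusted p = 0.0397). Among chains with a mean of at least 1 CPM the largest differences with all libraries were Col4a6 at −2.02, Col15a1 at −1.84 and Col6a6 at −1.16, none past the test. With all libraries Col4a1 was at 0.50 (SE 0.11, adjusted p = 0.0541), and it passed when KO SHAM 4, WT SHAM 2 or WT PAB 1 alone was left out, at adjusted p as low as 0.0397. Without KO PAB 1, Col5a3 passed as a fall. At an unadjusted p below 0.05, 2 collagens were higher and 2 lower with all libraries (8.37% and 7.24% of all genes). Without the 3, 10 were higher, Col7a1 and Col13a1 included, and 0 lower (12.3% and 11.1%). The median moved from −0.08 to 0.36 and the number above 0 from 10 of 31 to 24 of 31, where 46.3% and 50.7% of all genes were above 0. Without the 3, 8 of 31 collagens lay wholly above the remaining sham libraries, where 11.1% of genes did. Both the 24 and the 8 include Col7a1 and Col13a1, and the 24 also Col11a1, none of which is counted as support. Col8a1 was at 1.81 (SE 0.51, adjusted p = 0.0740) and Col1a1 at 1.07 (SE 0.44, adjusted p = 0.169) in that fit, neither past the test. DESeq2 called 2 collagens on all libraries, Col4a1 and Col4a2, where 509 genes passed in all against 85 in the main fit.

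The difference between these responses was tested by the interaction of banding and genotype. No collagen passed, 0% of the 13458 genes passed, and 1 collagen, Col28a1, had an unadjusted p below 0.05 (1.24, SE 0.58), as had 1.06% of genes above 0 and 0.706% below. The interaction of Col4a1 was 0.17 (SE 0.16) with all libraries and 0.23 (SE 0.17) without the 3, and that of Col1a1 was 0.72 (SE 0.86) and 0.74 (SE 0.64). With a mean of at least 1 CPM the largest were Col8a2 at 1.51 (SE 1.09), Col12a1 at 1.42 (SE 1.002) and Col4a6 at 1.18 (SE 1.78). The median over collagens was 0.44 with all libraries and 0.23 without the 3. With SE of this size, large differences between genotypes in either direction were not detectable for most chains.

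Genotype alone gave no collagen past the test in either surgery group, where 0.00743% of all genes passed in each. At an unadjusted p below 0.05, 0 collagens differed in SHAM, where 0.877% of genes were higher and 1.15% lower in KO. In PAB 1 collagen, Col5a3, was lower and 0 were higher, where 2.25% of genes were higher and 2.27% lower. DESeq2 called 0 collagens for genotype in either surgery group and 0 for the interaction. In SHAM the median KO minus WT difference was −0.41, and −0.19 without the 3 libraries, against −0.02 and 0.01 for all genes. It ranged from −1.13 without KO SHAM 4 to −0.01 without WT SHAM 2. By the same minimum the largest SHAM differences were Col4a6 at −1.64, Col12a1 at −1.14 and Col8a2 at −0.81. In PAB the median was 0.04, and the largest were Col15a1 at −1.89 (SE 1.27, adjusted p = 0.999), Col11a2 at −0.80 (SE 0.42, adjusted p = 0.999) and Col8a1 at 0.80 (SE 0.66, adjusted p = 0.999). The 4 PAB libraries of both genotypes overlapped for every collagen. In SHAM with all libraries Col5a3 alone did not overlap, at 16.8 to 19.2 CPM in KO and 20.6 to 25.5 CPM in WT. The share of all genes without overlap is not given for these comparisons, so this is a description only.

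Ratios of 2 chains within a library do not depend on how libraries are scaled. The 9 pairs compared share a trimer, a fibril or the matrix, and were tested in 4 comparisons of a pair of groups, 36 exact two-sided permutation tests in all, with counts raised by 0.5. With 4 against 4 the smallest possible p is 0.0286, and 7 of the 36 tests reached it. None passed after Benjamini-Hochberg adjustment, where the lowest value was 0.147. With this smallest p, a pass over 36 tests would have needed far more of them to reach it together. Without the 3 libraries the lowest adjusted value was 0.343, and with so few libraries no ratio could have passed. The lack of a pass therefore says little about the ratios.

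The log2 ratio of Col4a2 to Col4a1 was −1.03, −1.05, −1.03 and −0.93 in WT SHAM and −1.25, −1.16, −1.08 and −1.10 in KO SHAM. In banded hearts it was −1.08, −0.90, −1.16 and −0.94 in WT and −1.16, −1.19, −1.24 and −1.25 in KO. Every KO library was below every WT library within each surgery group, with mean differences of −0.14 in SHAM and −0.19 in PAB on the log2 scale (exact permutation p = 0.0286 each, adjusted 0.147). Banded minus sham differences of this ratio were −0.01 in WT and −0.06 in KO (exact permutation p = 0.857 and 0.2). Col4a5 relative to Col4a1 differed after banding by −1.17 in WT and −0.74 in KO, and by −0.28 and −0.45 without the 3 libraries. Col8a2 relative to Col8a1 differed by −0.74 after banding in WT, and by −0.48 between KO SHAM and WT SHAM. Col6a3 relative to Col6a1 was higher in KO SHAM than in WT SHAM by 0.47. These 4 ratios make up the 7 tests at the smallest p, and none of them passed after adjustment. Col3a1 relative to Col1a1 averaged 2.14 ± 0.13, 2.06 ± 0.15, 2.26 ± 0.31 and 2.18 ± 0.16 for WT sham, WT banded, KO sham and KO banded hearts in turn (mean ± SD of the log2 ratio, n = 4), with exact permutation p of 0.486 to 0.686 over the 4 comparisons.

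**Figure D5:**
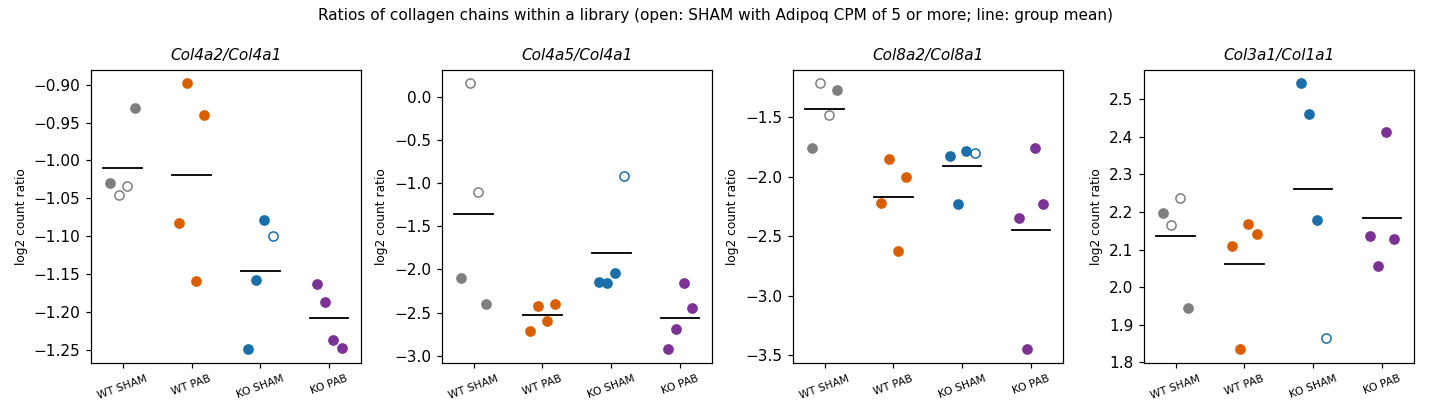
The log2 ratio of the counts of 2 collagen chains is plotted for each library by group, with open circles for the 3 SHAM libraries high in Adipoq and a line at the mean of 4; the axes do not start at 0. In the panel of Col4a2 over Col4a1 the KO points lie below the WT points within each surgery group, while the panel of Col3a1 over Col1a1 shows overlap of all 4 groups.

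Collagen chains need enzymes and chaperones to be hydroxylated, folded, trimmed and crosslinked. The list of 36 genes for these steps also holds the matrix proteins Fmod, Dcn, Lum and Sparc. Dcn and Lum are among the fibroblast markers as well. Of the 36 genes 34 were in the files and tested, and 0 passed in any of the 6 comparisons with all libraries (edgeR quasi-likelihood test). At an unadjusted p below 0.05, 0 were higher and 10 lower in the averaged comparison, 9 were lower in WT and 4 in KO, out of 34, where 11.8%, 6.26% and 7.24% of all genes were lower. The 3 with the smallest p in the averaged comparison were Adamts3, a procollagen trimming protease, at −0.90 (adjusted p = 0.0511), Colgalt2, a collagen galactosyltransferase, at −0.75 (0.0716), and Ppib, a folding isomerase, at −0.23 (0.0747). Their list had a median of −0.20 with all libraries and 0.06 without the 3, against −0.02 and 0.01 for all genes. Without the 3 libraries 2 of 33 rose, where 3.83% of all genes did, the crosslinking enzymes Loxl1 at 1.44 (SE 0.35, adjusted p = 0.0368) and Loxl2 at 0.70 (SE 0.20, adjusted p = 0.0497). Loxl1 stood at 1.55 to 5.67 CPM in the 5 other sham libraries, at 11.9 to 24.1 CPM in the 3 and at 5.21 to 15.6 CPM after banding.

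Of 12 collagen receptors and uptake genes 10 were tested, and 0 passed with all libraries (edgeR quasi-likelihood test), with 1 higher and 1 lower at an unadjusted p below 0.05 in the averaged comparison (11% and 11.8% of all genes). Without the 3 libraries 2 of 10 rose in the averaged comparison, where 3.83% of all genes did, the collagen-activated kinase Ddr1 at 0.71 (SE 0.14, adjusted p = 0.0223) and the integrin chain Itgb1 at 0.33 (SE 0.09, adjusted p = 0.0477). Ddr1 also rose in KO in that fit, where 1.42% of genes did, at 0.79 (SE 0.19, adjusted p = 0.0467). It stood at 13.8 to 20.2 CPM in the 5 other sham libraries, at 22.2 to 28.4 CPM in the 3 and at 21.7 to 38.3 CPM in the 8 banded libraries. With all libraries Ddr1 was at 0.48 (adjusted p = 0.0786), Itga11, an integrin of fibroblasts, at −1.31 (0.218) and Ddr2, the fibroblast counterpart of Ddr1, at −0.67 (0.251).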

How the data were processed

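Right ventricular RNA of 16 libraries was made into stranded mRNA libraries (TruSeq), per the labels' protocols. The deposited values are estimated counts per gene, held as whole numbers. STAR 2.5.3a, RSEM 1.3.0 and the build Rnor_6.0 are named in the submitters' processing notes, which do not say how the estimates became whole or which strand setting was used. Reads of overlapping or antisense genes may therefore be shared.

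Samples were grouped by genotype and surgery from the titles. Counts were scaled by TMM and tested with edgeR 4.0.16 (quasi-likelihood, robust, filterByExpr with a minimum count of 10; R 4.3.3) in 1 model of 4 groups, with Benjamini-Hochberg adjustment over all genes tested. Adjusted p below 0.05 passed. The 6 comparisons were: banding in each genotype, banding averaged, genotype in each surgery group, and the interaction. Ratios of chains used exact two-sided permutation tests. Alternatives were DESeq2 1.42.0, RLE scaling, other filters, a replicate block and leaving out libraries. The fit without KO PAB 3 was added after seeing the data. No 2 libraries were identical. The fit was tested on simulated data.

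Collagen members and gene lists were chosen with earlier results of these data known. Values in every library are given for a set list of chains, for every chain past the test and for the 3 largest differences per comparison with a mean of at least 1 CPM. Total counts of 22168110 to 34718633 per library limit low chains. The limit given for a count of 0 covers counting error only, while each SE includes the spread between libraries.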

Additional observations from a re-analysis of the deposited data

Results flagged for a closer look

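Among 22 collagens, the 4 libraries of each group gave 88 sets, and in 15 of them 1 library lay far from the other 3, with a gap to the nearest above Dixon's 95% critical value for 4 samples. Chance flags about 1 set in 20 where sets are independent and values normal. These sets share the same libraries and use unlogged CPM, so the 15 cannot be set against that rate.

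KO SHAM 4 lay far above the other 3 KO SHAM libraries for 10 chains. Among network chains these were Col4a5 at 153 CPM, Col4a6 at 14.3 CPM and Col8a2 at 8.26 CPM. Among fibrillar and beaded filament chains they were Col5a2 at 66.6 CPM, Col11a1 at 1.02 CPM and Col6a6 at 13.9 CPM. The others were Col12a1 at 10.2 CPM, Col14a1 at 109.6 CPM, Col15a1 at 61.5 CPM and Col18a1 at 95.5 CPM. This library also had 13.2 CPM of Adipoq.

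WT PAB 2 lay far above the other 3 WT PAB libraries for Col4a5 at 70.3 CPM, Col4a6 at 2.68 CPM and Col5a2 at 43.4 CPM. KO PAB 3 lay far above the rest of its group for Col6a6 at 7.00 CPM. KO PAB 1 lay far below the rest of its group for Col6a2 at 70.6 CPM.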

How the results depend on the processing

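Collagen results with all 16 libraries kept direction and call under RLE size factors, no filter and a stricter filter on low counts. The chain ratios did so with a pseudocount of 1, and the summed collagen levels moved by less than 1 SD with plain library totals. Low counts limit Col7a1, Col11a1, Col13a1, Col19a1 and Col23a1. Without the SHAM libraries high in Adipoq, Col11a1 and Col13a1 passed the filter on low counts only through banded libraries. The cause of the changes listed was not tested, and all values are log2 unless they are counts.

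Without the 3 SHAM libraries of 5 or more Adipoq CPM, log2 differences that changed sign, and counts or medians that moved, were, for banding in WT, genes past the test 0, the collagen median 0.15, Col1a1 0.33, Col3a1 0.32, Col8a1 1.39, Col12a1 0.72, Col4a6 1.07, Col18a1 0.22, Col5a1/Col1a1 −0.12. For banding in KO they were genes past the test 344, collagens past the test 2, Col4a6 0.72, Col15a1 0.64, Col4a1/Col1a1 −0.50. For averaged banding they were collagens past the test 5, the collagen median 0.29, Col1a1 0.70, Col3a1 0.63, Col4a3 0.0879, Col4a4 0.0257, Col4a5 0.10, Col4a6 0.90, Col5a1 0.43, Col5a2 0.19, Col6a1 0.0161, Col6a2 0.18, Col8a2 1.14, Col11a1 0.32, Col12a1 0.97, Col13a1 1.11, Col14a1 0.10, Col15a1 0.37, Col16a1 0.51, Col17a1 0.98, Col18a1 0.29, Col27a1 −0.0377. For genotype in SHAM they were Col8a1 0.38, Col4a5/Col4a1 0.14. For the interaction they were Col6a6 −0.081, Col4a6 −0.35.

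Without KO PAB 3 as well they were, for banding in WT, genes past the test 0, the collagen median 0.15, Col1a1 0.33, Col3a1 0.32, Col8a1 1.39, Col12a1 0.72, Col4a6 1.07, Col18a1 0.22. For banding in KO they were collagens past the test 1, Col4a6 0.58, Col15a1 1.05. For averaged banding they were the collagen median 0.23, Col1a1 0.62, Col3a1 0.49, Col4a3 0.0178, Col4a5 0.0673, Col4a6 0.83, Col5a1 0.38, Col5a2 0.13, Col6a2 0.16, Col8a2 0.79, Col11a1 0.29, Col12a1 0.96, Col13a1 1.16, Col14a1 0.036, Col15a1 0.57, Col16a1 0.44, Col17a1 0.83, Col18a1 0.23. For genotype in SHAM they were Col8a1 0.37. For the interaction they were Col6a6 −0.57, Col4a6 −0.49.

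With DESeq2, 108 genes passed the test for banding in WT, 509 for banding in KO, 1337 for averaged banding and 5 for genotype in PAB, and 2 collagens passed for banding in KO and 6 for averaged banding. With only the 2 groups compared, 0 genes passed for banding in WT and 155 for banding in KO.

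No pairing by replicate number was seen: 3 of 16 libraries correlated best with their own number, and same-numbered pairs ranged from −0.62 to 0.56 over 24 pairs. This check cannot exclude that libraries of 1 number were handled together. With the replicate block, Col8a1 was at 0.21 for banding in WT, and Col8a2 at 0.0585 and Col13a1 at 0.0415 for averaged banding, each with the sign changed. Under the block 0 genes passed for banding in KO, and averaged banding gave 3 collagens past the test as before.

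Leaving out 1 library at a time gave, for banding in WT, genes past the test 0 to 1, Col8a1 −0.51 to 0.47, Col3a1/Col1a1 −0.14 to 0.00279, Col5a1/Col1a1 −0.0129 to 0.33, Col4a2/Col4a1 −0.0499 to 0.0373. For banding in KO it gave genes past the test 0 to 275, collagens past the test 0 to 1, Col1a1 −0.19 to 1.08, Col3a1 −0.018 to 0.94, Col4a1 0.44 to 0.58, Col12a1 −0.0298 to 1.22, Col4a6 −2.37 to 0.73, Col15a1 −3.94 to 0.65, Col3a1/Col1a1 −0.21 to 0.0154, Col5a2/Col5a1 −0.33 to 0.0119, Col4a1/Col1a1 −0.50 to 0.41. For averaged banding it gave genes past the test 356 to 964, collagens past the test 1 to 3, Col1a1 −0.41 to 0.24, Col3a1 −0.38 to 0.10, Col4a2 0.33 to 0.43, Col5a1 −0.32 to 0.13, Col5a3 −0.50 to −0.31, Col6a2 −0.24 to 0.00851, Col6a6 −1.54 to −1.12, Col8a2 −0.45 to 0.36, Col11a2 −0.25 to 0.0434, Col12a1 −0.67 to 0.0873, Col13a1 −0.26 to 0.54, Col16a1 −0.27 to 0.24, Col17a1 −0.73 to 0.17, Col27a1 −0.0208 to 0.19. For genotype in SHAM it gave the collagen median −1.13 to −0.00639, Col8a1 −1.08 to 0.26, Col12a1 −2.16 to 0.0575, Col4a6 −4.38 to 0.13, Col4a5/Col4a1 −0.80 to 0.0552. For genotype in PAB it gave Col4a2 −0.18 to 0.00207, Col4a1/Col1a1 −0.44 to 0.0949, Col6a1/Col6a2 −0.10 to 0.0232, Col6a3/Col6a1 −0.0699 to 0.13, Col8a2/Col8a1 −0.50 to 0.0653, Col4a5/Col4a1 −0.16 to 0.10. For the interaction it gave the collagen median 0.0269 to 1.26, Col6a6 −0.21 to 0.63, Col4a6 −0.58 to 3.92.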
